A study of Mus musculus with 6 samples.

Results

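Extracellular matrix, elastic fibre and dermatan genes were examined in primary mouse embryonic fibroblasts (MEFs) that lack Bahd1, which encodes a protein of chromatin-repressive complexes. The 7 genes Lum, Abi3bp, Efemp1, Mfap5, Fibin, Chst14 and Adam12 were taken by symbol from the authors' comparison table, which names 491 of the 23332 transcript clusters measured (2.1%). That table was itself selected on the contrast between Bahd1-KO and Bahd1-WT arrays. The differences of these genes between genotypes are therefore a description, and no test of them is given. Chst14 and Lum were lower in every Bahd1-KO array than in any Bahd1-WT array, and Mfap5 and Adam12 were higher. Abi3bp and Fibin had lower means in Bahd1-KO MEFs with overlapping arrays. The means of Efemp1 differed by 0.02 on the log2 scale.

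The 3 Bahd1-KO samples were MEFs with total ablation of the gene, and the 3 Bahd1-WT samples were wild-type MEFs. Both genotypes came from embryos of the C57BL/6 strain at E13.5, bred from heterozygous parents, and each embryo gave a separate culture that was thawed and passaged a single time before RNA extraction. Each culture was hybridised to 1 Mouse Exon 1.0 ST array, which measures each gene with many short probes that are summarised to a transcript cluster. The values are log2 expression. With 3 embryos a genotype, the SDs reflect the spread between embryos. The limma standard errors also draw on the spread of all clusters.

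The extracellular matrix of a fibroblast is built from collagen fibrils, elastic fibres and proteoglycans. Small leucine-rich proteoglycans such as lumican bind collagen and set the diameter and spacing of fibrils. Dermatan sulphate is a sugar chain carried by several of them, and its sulphation is a late step of its synthesis in the Golgi. Elastic fibres consist of elastin laid on a scaffold of fibrillin microfibrils, to which glycoproteins such as Mfap5 and the fibulins attach. Metalloproteases of the ADAM and MMP families cleave matrix and cell-surface proteins.

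Array medians lay between 5.01 and 5.06 on the log2 scale. Pearson's r across clusters was 0.985 to 0.990 within a genotype. limma called 0 of 23332 clusters higher and 0 lower at an adjusted p under 0.05, while 2425 had an unadjusted p under 0.05, and an LPE test rebuilt from its description called 207 higher and 175 lower. The comparison table holds 352 higher and 139 lower by the difference of medians, so the rebuilt test does not give the counts of the table. The rebuilt counts cover all clusters, while the paper discarded entries labelled as EST or unknown. Signal from the Y chromosome, as the mean over Kdm5d, Eif2s3y and Ddx3y on the log2 scale, was 7.06 and 7.03 in Bahd1-KO arrays 2 and 3 and 7.19 in Bahd1-WT array 2. It was at most 2.38 in the other 3 arrays, and the labels used here do not give the sex of the embryos. The files name no cluster for Bahd1, so its own level was not analysed here. In RNA from whole cultures, fewer cells of a type and less RNA per cell cannot be told apart.

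**Figure D1:**
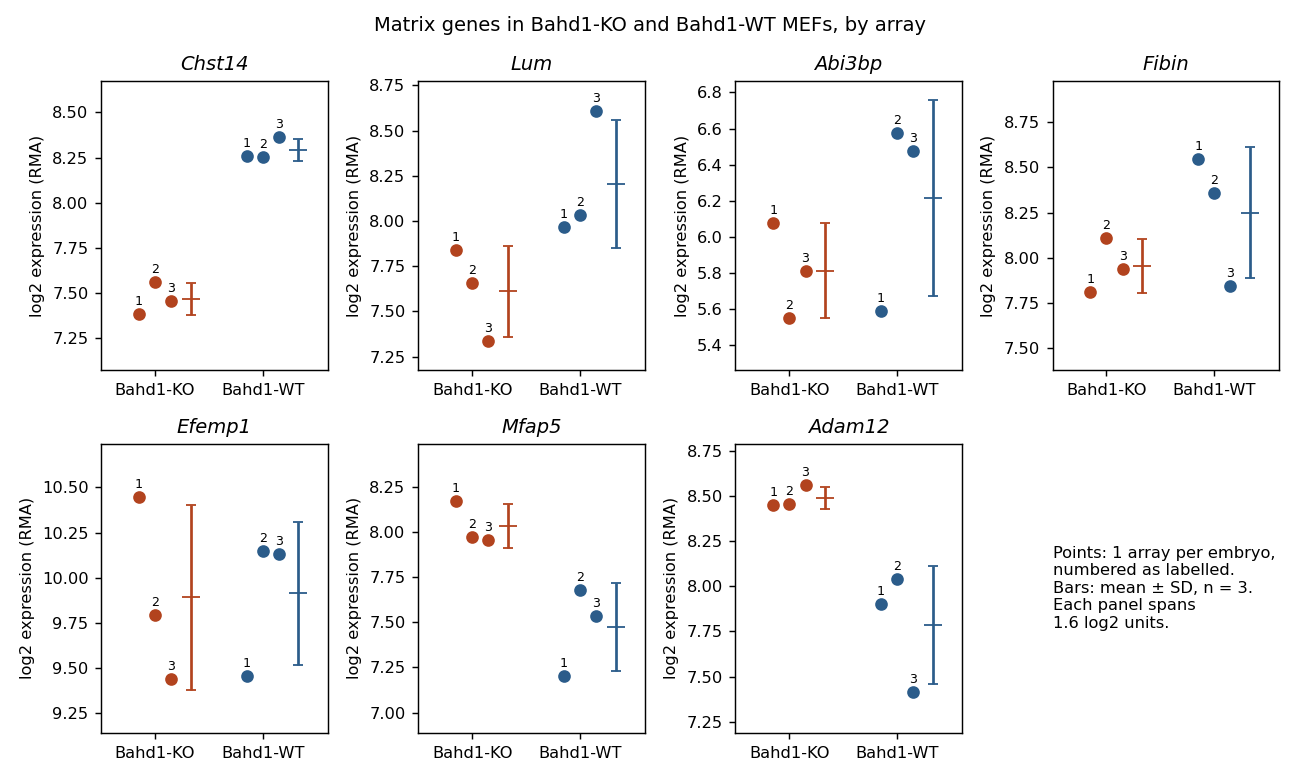
Log2 expression of the 7 genes on each array, with Bahd1-KO on the left and Bahd1-WT on the right of each panel. Points are single arrays with their replicate number, and bars are the mean and SD of 3 arrays. Chst14 shows the widest gap between genotypes, at 0.69, while the Bahd1-WT arrays of Efemp1 lie within the range of its Bahd1-KO arrays.

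Chst14 encodes the sulfotransferase that sulphates dermatan chains, and in humans its loss causes a form of Ehlers-Danlos syndrome, a connective tissue disorder. Its cluster, at chromosome 2, 118752253 to 118754321 on the plus strand in the array annotation (build not given in the sources used here), holds 12 probes. Chst14 was at 7.38, 7.56 and 7.46 in Bahd1-KO MEFs 1 to 3, against 8.26, 8.26 and 8.36 in Bahd1-WT MEFs 1 to 3. All 3 Bahd1-KO arrays were lower, and the highest of them lay 0.69 below the lowest Bahd1-WT array. The means were 7.47 ± 0.09 in Bahd1-KO and 8.29 ± 0.06 in Bahd1-WT MEFs (SD, n = 3 each). The log2 difference of -0.82 (limma standard error 0.08) puts the Bahd1-KO level at 0.565 of the Bahd1-WT level. Of all 23332 clusters, 251 had a difference at least this low, and the difference stayed between -0.87 and -0.78 when any single array was left out.

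Chst14 also had the tightest replicates of the 7 genes when both genotypes were pooled. Its pooled SD within genotypes was 0.08, which exceeded that of 31% of the 1000 clusters nearest to it in brightness. For the other 6 genes this share was between 85.4% for Mfap5 and 100% for Efemp1. Over the 7 genes, then, the pooled spread was small at Chst14 and wide at the others. At Adam12 the wide spread lay in the Bahd1-WT arrays (SD 0.33), and the Bahd1-KO arrays had an SD of 0.06.

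On chromosome 2, Chst14 is the first protein-coding gene after Bahd1 in the RefSeq order of GRCm38.p6. The comparison table, selected on this contrast, holds 2.1% of all clusters, 0.596% as lower. Of the 20 protein-coding genes nearest to Bahd1, 10 on each side, 2 are in that table, and both were lower. The other is Dnajc17, which encodes a J-domain protein and lies 8 protein-coding genes beyond Bahd1 on the same side as Chst14. Dnajc17 was at 5.02, 5.02 and 5.40 in Bahd1-KO MEFs, against 6.22, 5.63 and 6.34 in Bahd1-WT MEFs. Its log2 difference was -0.92 (limma standard error 0.22) and its genotypes did not overlap. The other 18 genes are not named in the files and were not analysed here, and the part of position in these differences was not tested.

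Promoter sequence was at hand for 3 of the 7 genes, from RefSeq on GRCm38.p6, and is shown because these 3 are genes with a lower median in Bahd1-KO MEFs, Chst14 next to the deleted gene. The bases before the outermost annotated start were searched on both strands for 5 motifs. The GC box was read as GGGCGG, the E-box as CACGTG and the AP-1 site as TGACTCA. The core promoter element with the letters TATAAA was searched as well, and so was the upstream element with the letters CCAAT. Capitals mark matches, and no match overlaps another motif.
Chst14, chr2:118926247-118926496, plus strand: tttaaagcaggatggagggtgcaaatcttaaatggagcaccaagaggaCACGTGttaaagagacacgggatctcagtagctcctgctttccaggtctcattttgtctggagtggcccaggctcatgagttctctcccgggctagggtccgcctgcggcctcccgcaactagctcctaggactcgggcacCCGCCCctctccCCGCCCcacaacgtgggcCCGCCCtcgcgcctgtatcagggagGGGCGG
Fibin, chr2:110362994-110363243, minus strand: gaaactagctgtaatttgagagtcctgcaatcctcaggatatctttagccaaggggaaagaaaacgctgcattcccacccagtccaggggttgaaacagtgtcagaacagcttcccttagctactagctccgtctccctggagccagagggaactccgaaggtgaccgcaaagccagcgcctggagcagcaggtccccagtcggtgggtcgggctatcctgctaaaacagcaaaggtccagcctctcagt
Efemp1, chr11:28852955-28853153, plus strand: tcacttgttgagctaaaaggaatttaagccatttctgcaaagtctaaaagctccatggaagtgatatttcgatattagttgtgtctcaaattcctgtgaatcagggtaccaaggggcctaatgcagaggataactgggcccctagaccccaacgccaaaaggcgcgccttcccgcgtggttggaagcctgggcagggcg

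The Chst14 window held 4 GC boxes and 1 E-box, and the Fibin and Efemp1 windows held no match. Of the bases of the Chst14 window 61.2% were G or C, and its 14 CpG sites exceeded the number in 70.6% of windows. The shares that follow count windows with at least 1 match and do not show how common 4 GC boxes are. A GC box was present in 32.7% of all 32851 RefSeq windows of 250 bases before a start, an E-box in 6.02%, an AP-1 site in 4.46%, the letters TATAAA in 12.4% and the letters CCAAT in 33.8%. The Efemp1 window is shorter, at 199 bases, because the RefSeq window was trimmed to the bases before the outermost start of the gene. The matches describe the letters of these windows and were set against no binding data.

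Lum encodes lumican, a keratan sulphate proteoglycan that organises collagen fibrils. Its cluster lies on chromosome 10, 97028105 to 97035414 on the plus strand of the array annotation. Lum was at 7.84, 7.65 and 7.34 in Bahd1-KO MEFs, against 7.97, 8.04 and 8.61 in Bahd1-WT MEFs. The Bahd1-KO arrays were all lower, but only 0.13 separated the groups, and Bahd1-WT array 3 stood well above the rest. The log2 difference was -0.59 (limma standard error 0.22), and -0.39 without Bahd1-WT array 3. The means were 7.61 ± 0.25 in Bahd1-KO and 8.20 ± 0.35 in Bahd1-WT MEFs (SD, n = 3 each).

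With Lum, 4 of 16 small leucine-rich proteoglycan genes are in the comparison table, and all 4 were lower in Bahd1-KO MEFs, with a median log2 difference of -0.51. Over all clusters the median difference was 0.02, and 0.596% of clusters are in the table as lower and 1.51% as higher, 2.1% in all. Genes in the table were selected on this contrast, so the count says nothing independent of it. Osteoglycin (Ogn), asporin (Aspn) and osteomodulin (Omd), the other 3, are consecutive protein-coding genes on chromosome 13 in the RefSeq order. Aspn, which binds collagen, was at 10.11, 10.28 and 10.15 in Bahd1-KO MEFs, against 10.40, 10.49 and 10.90 in Bahd1-WT MEFs, and its genotypes did not overlap. Ogn was at 10.56, 10.74 and 10.52 in Bahd1-KO MEFs, against 10.67, 11.00 and 10.98 in Bahd1-WT MEFs, and overlapped. Omd was at 4.83, 5.31 and 4.87 in Bahd1-KO MEFs, against 5.19, 5.77 and 6.72 in Bahd1-WT MEFs, and overlapped as well. Bahd1-WT array 3 was the highest at Aspn and Omd, and Bahd1-WT array 2 at Ogn. Of the genes beside Lum on chromosome 10, the proteoglycan genes Dcn, Kera and Epyc are not named in the files.

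Mfap5 encodes a small glycoprotein that binds fibrillin in microfibrils. Its cluster lies on chromosome 6, 122455883 to 122479666 on the plus strand of the array annotation. Mfap5 was at 8.17, 7.97 and 7.96 in Bahd1-KO MEFs, against 7.20, 7.68 and 7.54 in Bahd1-WT MEFs. Every Bahd1-KO array was higher than every Bahd1-WT array, with 0.28 between the groups and Bahd1-WT array 1 the lowest. The log2 difference was 0.56 (limma standard error 0.14), or 1.47-fold, from means of 8.03 ± 0.12 in Bahd1-KO and 7.47 ± 0.24 in Bahd1-WT MEFs (SD, n = 3 each). It ran from 0.43 without Bahd1-WT array 1 to 0.66 without Bahd1-WT array 2.

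Efemp1 encodes a fibulin, a secreted glycoprotein with EGF-like repeats that associates with elastic fibres and basement membranes. Its cluster lies on chromosome 11, 28646529 to 28857013 on the plus strand of the array annotation. Efemp1 was at 10.45, 9.79 and 9.44 in Bahd1-KO MEFs, against 9.46, 10.15 and 10.13 in Bahd1-WT MEFs. The highest and the lowest of the 6 arrays were both Bahd1-KO and all Bahd1-WT arrays lay between them. The means, 9.89 ± 0.51 in Bahd1-KO and 9.91 ± 0.39 in Bahd1-WT MEFs (SD, n = 3 each), differed by -0.02 (limma standard error 0.31). The medians, 9.79 in Bahd1-KO and 10.13 in Bahd1-WT MEFs, differed by -0.34, and the LPE method behind the table compares medians. Of the 491 genes in the table, Efemp1 had the smallest difference of means. Its difference was -0.30 without Bahd1-KO array 1 and 0.21 without Bahd1-KO array 3, so its direction depended on which array was used.

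Of 26 genes of elastic fibres and microfibrils, 3 are in the comparison table, which holds 2.1% of all clusters. Mfap5 and Efemp1 were taken from that table at the outset, so nothing is read from the count of 3. Beside Mfap5 and Efemp1 the third gene is Emilin2, which encodes an elastin-microfibril interface protein. Emilin2 was at 7.14, 6.99 and 6.86 in Bahd1-KO MEFs, against 6.38, 6.81 and 6.50 in Bahd1-WT MEFs. As at Mfap5, the Bahd1-KO arrays were all higher and Bahd1-WT array 1 was the lowest. Elastin, the fibrillins and the lysyl oxidases are not named in the files, so their levels were not analysed here.

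**Figure D2:**
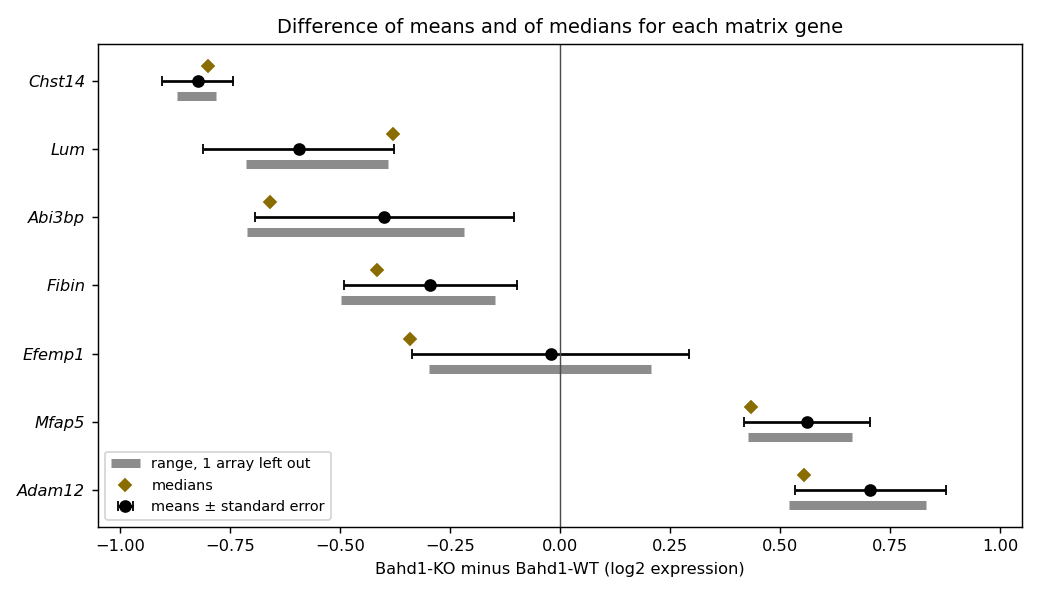
Bahd1-KO minus Bahd1-WT on the log2 scale for each gene, as the difference of means with its limma standard error (circles), the difference of medians (diamonds) and the range with any 1 array left out (grey bars). The Efemp1 range, -0.30 to 0.21, spans 0, and the other 6 do not.

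Abi3bp encodes a secreted matrix protein that binds ABI family proteins, and Fibin encodes a secreted protein named for its part in fin bud formation in zebrafish. Abi3bp lies on chromosome 16, 56477952 to 56690241 on the plus strand, and Fibin on chromosome 2, 110201099 to 110203322 on the minus strand of the array annotation. Abi3bp was at 6.08, 5.55 and 5.81 in Bahd1-KO MEFs, against 5.59, 6.58 and 6.47 in Bahd1-WT MEFs. Bahd1-WT array 1 lay among the Bahd1-KO arrays, and the other 2 Bahd1-WT arrays lay above all of them. The log2 difference was -0.40 (limma standard error 0.30), from means of 5.81 ± 0.26 in Bahd1-KO and 6.21 ± 0.54 in Bahd1-WT MEFs (SD, n = 3 each). Without Bahd1-WT array 1 it was -0.71, and without Bahd1-WT array 2 it was -0.22.

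Fibin was at 7.81, 8.11 and 7.94 in Bahd1-KO MEFs, against 8.54, 8.36 and 7.84 in Bahd1-WT MEFs. Here Bahd1-WT array 3 lay among the Bahd1-KO arrays and the other 2 Bahd1-WT arrays lay above them. The log2 difference was -0.29 (limma standard error 0.20), from means of 7.95 ± 0.15 in Bahd1-KO and 8.25 ± 0.36 in Bahd1-WT MEFs (SD, n = 3 each). It was -0.50 without Bahd1-WT array 3 and -0.15 without Bahd1-WT array 1. RefSeq places a lncRNA gene, Gm30319, across the span of Fibin.

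Adam12 encodes meltrin alpha, a metalloprotease and disintegrin that cleaves cell-surface and IGF-binding proteins. Its cluster lies on chromosome 7, 141074902 to 141423809 on the minus strand of the array annotation, and holds 501 probes. Adam12 was at 8.45, 8.46 and 8.56 in Bahd1-KO MEFs, against 7.90, 8.04 and 7.42 in Bahd1-WT MEFs. The Bahd1-KO arrays were all higher, 0.41 above the highest Bahd1-WT array, and Bahd1-WT array 3 was the lowest. The log2 difference was 0.70 (limma standard error 0.17), or 1.63-fold, from means of 8.49 ± 0.06 in Bahd1-KO and 7.79 ± 0.33 in Bahd1-WT MEFs (SD, n = 3 each). Without Bahd1-WT array 3 it was 0.52. RefSeq places 4 lncRNA genes within the span of Adam12. No other gene of the 11 listed ADAM genes and none of the 18 listed ADAMTS genes is in the comparison table.

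In all, the genotypes did not overlap in 4 of the 7 genes, 2 with Bahd1-KO higher and 2 with Bahd1-KO lower. Over all clusters, every Bahd1-KO array lay above every Bahd1-WT array in 11.4% and below in 6.64%, which makes 18.1% without overlap. Within the 491 genes of the table these shares were 59.7% and 17.3%, together 77%. The table was selected on the same contrast, so nothing is read from the count of 4. It was 5 without Bahd1-WT array 1, when Abi3bp no longer overlapped, and 5 without Bahd1-WT array 3, when Fibin no longer overlapped, while 29.2% and 29% of all clusters did not overlap in these settings.

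Among arrays of the same genotype, the 7 genes varied in groups that do not follow their direction between genotypes. The correlation of deviations from the genotype mean over 6 arrays was 0.95 for Abi3bp and Mfap5, 0.86 for Efemp1 and Mfap5 and 0.77 for Abi3bp and Efemp1. These 3 genes were all low in Bahd1-WT array 1 and high in Bahd1-KO array 1, although Mfap5 was higher and Abi3bp lower in Bahd1-KO MEFs. Fibin and Adam12 had a correlation of 0.81, with both low in Bahd1-WT array 3. Lum, high in that array, had correlations of -0.81 with Fibin and -0.86 with Adam12. The correlations of Chst14 with the other 6 genes ran from -0.56 to 0.33. The 21 pairs share the same 6 arrays and are given as a description.

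**Figure D3:**
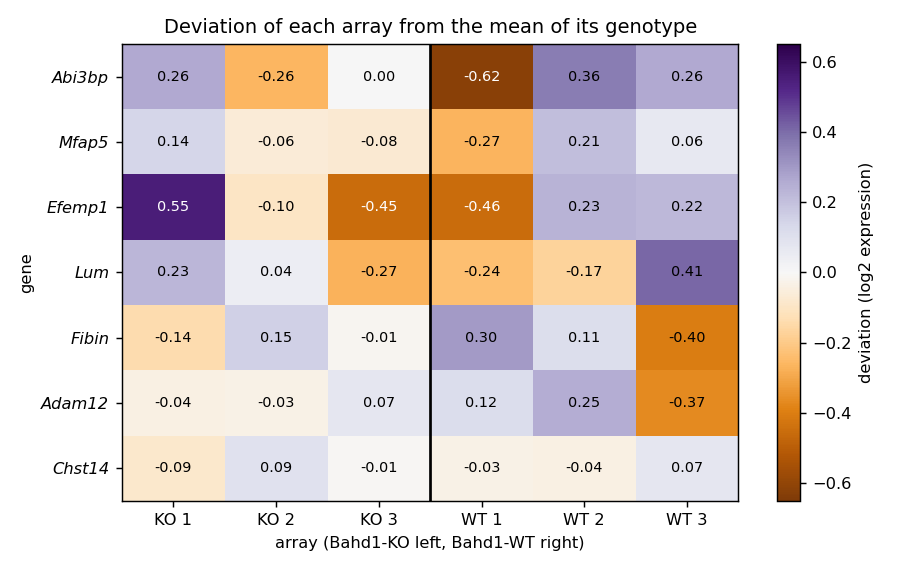
Log2 deviation of each array from the mean of its own genotype, for Bahd1-KO arrays on the left and Bahd1-WT arrays on the right of the line. Abi3bp, Mfap5 and Efemp1 share their low value in Bahd1-WT array 1 (-0.62, -0.27 and -0.46), and Fibin and Adam12 in Bahd1-WT array 3 (-0.40 and -0.37).

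Bahd1-WT array 3 had the largest deviation of the 6 arrays in 3 of the 7 genes (Lum, Fibin and Adam12) and in 7 of 16 other matrix genes of the table, against 29.9% of all genes of the table and 24.9% of all clusters. limma's array weight was lowest for this array, at 0.544, and between 0.893 and 1.48 for the others. Bahd1-WT array 1 had the largest deviation in 2 genes, Abi3bp and Mfap5.

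The Y-linked signal divides the arrays into 3 with a high and 3 with a low level, which allowed each difference to be given on both sides. Among the high arrays (Bahd1-KO 2 and 3 against Bahd1-WT 2), Chst14 differed by -0.74, Lum by -0.54, Fibin by -0.33, Mfap5 by 0.29 and Adam12 by 0.47. Among the low arrays (Bahd1-KO 1 against Bahd1-WT 1 and 3), Chst14 differed by -0.93, Lum by -0.45, Fibin by -0.38, Mfap5 by 0.80 and Adam12 by 0.79. These 5 genes kept their direction on both sides. For Chst14, Lum, Mfap5 and Adam12 no other outcome was possible, because their genotypes did not overlap. Abi3bp differed by -0.89 among the high arrays and by 0.05 among the low arrays, and Efemp1 by -0.53 and by 0.65. With the Y-linked level as a covariate in limma the difference was -0.83 for Chst14, -0.50 for Lum and 0.05 for Efemp1. A side with 1 array of a genotype has no error of its own, and the part of embryo sex was not tested.

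The other matrix genes were counted from 11 lists with 229 genes in all, written from textbook knowledge. Beside the 7, 16 of the remaining 222 listed genes are in the comparison table, 10 higher and 6 lower, with a median log2 difference of 0.35. The whole table, selected on this contrast, holds 352 higher and 139 lower genes, together 2.1% of all clusters. Counts from the lists, which were written with earlier results of these data known, are a description. Among the 16, the genotypes did not overlap in 7 higher and 3 lower genes. The shares without overlap were 77% of the genes of the table (59.7% higher and 17.3% lower) and 18.1% of all clusters. The median difference was 0.43 among all genes of the table and 0.02 over all clusters. All 16 kept their direction when any single array was left out. For the 7 higher and 3 lower genes without overlap no other outcome was possible.

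Genes of glycosaminoglycan synthesis were found on both sides. Of 22 genes of dermatan and chondroitin sulphate synthesis, the table holds Chst14 and Chst11, a sulfotransferase that acts on chondroitin. Chst11 was at 8.30, 8.07 and 8.17 in Bahd1-KO MEFs, against 7.75, 7.61 and 7.18 in Bahd1-WT MEFs, so all Bahd1-KO arrays were higher and the log2 difference was 0.67 (limma standard error 0.16). This is the opposite direction to Chst14. Has2, which makes hyaluronan, was at 8.77, 8.67 and 8.75 in Bahd1-KO MEFs, against 8.15, 8.01 and 7.56 in Bahd1-WT MEFs, without overlap. The dermatan epimerase gene Dse is not named in the files.

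Of 24 matrix metalloprotease and TIMP genes, the table holds Mmp10 and Mmp12, both higher in Bahd1-KO MEFs. Mmp12, an elastase, averaged 6.84 ± 0.20 in Bahd1-KO MEFs and 6.24 ± 0.20 in Bahd1-WT MEFs (SD, n = 3 each), without overlap. Mmp10, a stromelysin, differed by 0.73 (limma standard error 0.34), with overlapping arrays.

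Among collagens and basement membrane genes, 0 of 23 collagens outside the fibrillar and basement membrane types are in the table, and of 24 genes of fibrillar collagens and their processing only Pcolce2, a procollagen processing enhancer, is. Pcolce2 differed by 0.62 (limma standard error 0.35) with overlapping arrays. The basement membrane genes Col4a5, a collagen chain, and Lama4, a laminin chain, lay in opposite directions and without overlap, Col4a5 with a log2 difference of 0.53 and Lama4 with -0.34 (limma standard errors 0.11 and 0.09).

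Of 33 matricellular and adhesive glycoprotein genes, 7 are in the table, which holds 2.1% of all clusters. Abi3bp and Fibin are among these genes and were taken from the table at the outset. The integrin ligand Npnt differed by 0.70 (limma standard error 0.17), Cyr61, a matricellular integrin ligand, by 0.26 (0.09) and the calcium-binding Smoc2 by 0.26 (0.13). Osteopontin (Spp1) differed by -0.32 (limma standard error 0.09) and the matrilin Matn2 by -0.37 (0.21). The arrays of the genotypes did not overlap at Npnt, Cyr61 and Spp1 and overlapped at Smoc2 and Matn2.

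**Figure D4:**
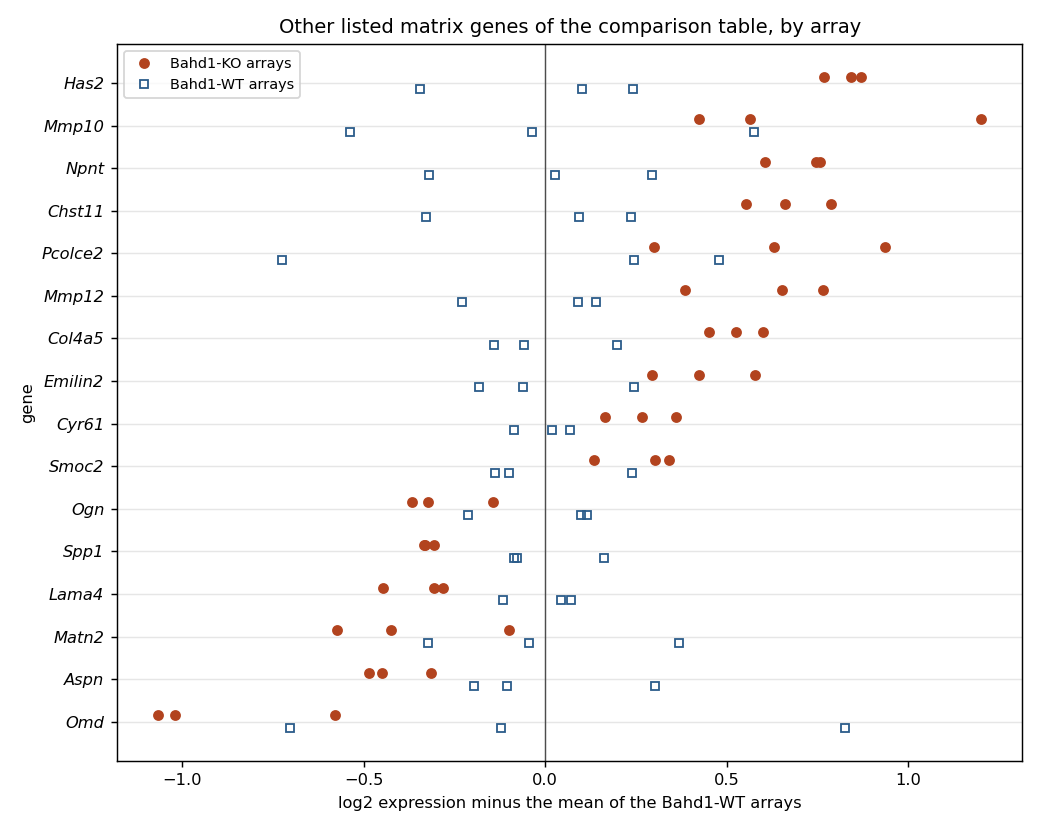
Log2 expression of the 16 other listed matrix genes of the comparison table on each array, relative to the mean of the Bahd1-WT arrays. Filled circles are Bahd1-KO arrays and open squares, below them, Bahd1-WT arrays, with 1 gene in each line. The 10 genes at the top were higher in Bahd1-KO MEFs and the 6 at the bottom, Ogn to Omd, lower.

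Of 45 listed markers of fibroblasts and 5 other cell types, 7 are in the comparison table, which was selected on this contrast and holds 2.1% of all clusters, and the other 38 are not named in the files. The genotypes did not overlap in these 7, against 77% of all genes of the table and 18.1% of all clusters. The fibroblast receptor gene Pdgfra, the single fibroblast marker of 12 that the files name, was at 8.13 to 8.50 in Bahd1-KO and at 8.74 to 9.10 in Bahd1-WT arrays. The smooth muscle markers Cnn1 and Des, 2 of 6, had a mean of 9.06 to 9.30 in Bahd1-KO and of 8.56 to 8.59 in Bahd1-WT arrays. The epithelial keratins Krt18 and Krt19, 2 of 7, had a mean of 8.63 to 8.68 in Bahd1-KO and of 7.52 to 7.83 in Bahd1-WT arrays. The endothelial marker Emcn, 1 of 7, was at 5.62 to 6.14 in Bahd1-KO and at 4.56 to 4.93 in Bahd1-WT arrays, and the macrophage marker Csf1r, 1 of 7, at 6.28 to 6.74 in Bahd1-KO and at 6.05 to 6.16 in Bahd1-WT arrays. None of the 6 chondrocyte markers is in the table. The part of these cell types in the differences of the matrix genes was not tested.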

How the data were processed

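RNA from 3 Bahd1-KO and 3 Bahd1-WT MEF cultures was hybridised to Mouse Exon 1.0 ST arrays. The authors normalised and summarised the arrays by RMA, and the deposited values are log2 expression of 23332 core transcript clusters. RMA versions and the genome build of the array annotation are not given in the sources used here. The deposited comparison table names 491 clusters, chosen by the authors with an LPE test and Benjamini-Hochberg adjustment. Its fold change and p-value columns hold the authors' own comparison and were not used.

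Differences are Bahd1-KO minus Bahd1-WT, with standard errors from limma 3.58.1 in R 4.3.3 fitted over all clusters without a filter on brightness. The fit was tested on simulated data. Sums, correlations and motif searches were run in Python 3.11.15. Correlations within genotypes used deviations from the genotype mean. Array data carry no read depth, and the number of arrays limits the precision. The genes and lists were chosen with earlier results of these data known.

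By rule, the genes named are the 7, every listed matrix gene in the comparison table, the 2 table genes most like each of the 7 in deviations, and table genes among the 10 protein-coding genes on each side of Bahd1. Cell type markers in the table come from separate lists. Alternatives were a second quantile normalization, median centring, array weights, the Y-linked level as a covariate, a replicate block, a trended and robust prior, a filter on dim clusters, the rebuilt LPE test, medians in place of means, and each array left out.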

Additional observations from a re-analysis of the deposited data

Results flagged for a closer look

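Efemp1 had a log2 difference of -0.53 among the 3 arrays with high Y-linked signal, where both Bahd1-KO arrays were lower than the Bahd1-WT array, and of 0.65 among the 3 arrays with low Y-linked signal, where the Bahd1-KO array was higher than both Bahd1-WT arrays. The opposite directions on the 2 sides drew attention to it. The difference between the sides was not tested, and each side holds 1 array of 1 of the genotypes.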

How the results depend on the processing

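No difference of the 7 genes moved by more than its SD within genotypes under any alternative. With 3 arrays a genotype, leaving 1 out cannot move a difference by more than that SD, and a replicate block cannot move it at all. For those settings this is arithmetic and does not measure stability. Of 42 values under settings that kept all arrays, 41 kept their sign, and Efemp1 with the Y-linked level as a covariate was 0.05. With each array left out in turn, the log2 difference ran from -0.87 to -0.78 for Chst14, from -0.71 to -0.39 for Lum, from -0.71 to -0.22 for Abi3bp, from -0.50 to -0.15 for Fibin, from -0.30 to 0.21 for Efemp1, from 0.43 to 0.66 for Mfap5 and from 0.52 to 0.83 for Adam12. The 4 changes of sign among these 42 values were all of Efemp1. Chst14, Lum, Mfap5 and Adam12, whose genotypes did not overlap, could not change sign. The count of the 7 genes whose genotypes did not overlap ran from 4 to 5. Of the 16 other matrix genes, 10 were higher with any array left out, and 7 of these, without overlap, could not have changed.

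The limma counts of 0 higher and 0 lower clusters were the same in every setting except a pair. The rebuilt LPE test called 207 higher and 175 lower, and limma on the 11666 clusters above the median brightness, with fewer clusters tested, called 29 higher and 7 lower. The cause of the LPE difference was not tested. With the replicate number as a block limma called 0 higher and 0 lower, and the differences of the 7 genes did not move because the design is balanced. Samples with the same number had correlations of deviations of -5e-04, 0.0266 and 2e-04, and not every array correlated best with its own number. With 3 arrays a genotype, these values cannot show whether arrays of the same number shared a litter, a culture day or a batch.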

Other observations

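Among the other 490 genes of the comparison table, those whose arrays deviated most like each of the 7 genes within genotypes were, by Pearson's r over 6 arrays, A4galt (0.99) and Zcchc5 (0.98) for Lum, Adm (0.99) and Cck (0.97) for Abi3bp, and Kcnab1 (0.99) and Sfrp4 (0.98) for Efemp1. For Mfap5 they were Adm (0.96) and Hist1h2ab (0.96), for Fibin Prkg2 (0.97) and Cd38 (0.96), and for Adam12 Tspan12 (0.99) and Tnfrsf22 (0.98). Chst14 had the lowest such values, 0.94 with Hoxa5 and 0.91 with Nod1, and 2 of the 490 genes reached an r of 0.9 with it, against 9 to 31 for the other 6 genes. These values are a description, and all rest on the same 6 arrays.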
